A study of Mus musculus with 12 samples.

Results

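The 9 samples of CD8+ T cells from irradiated tumours were compared with the 3 samples from nontreated tumours, to describe what 3 modes of radiotherapy have in common. The irradiated side was the mean of the SRT, CRT and SRT-like group means, so each mode counted equally, and all 773 probes of the panel and all 12 samples of the series were used. The cells were sorted from MC38 tumours, a mouse colon carcinoma line, grown in C57BL/6J mice. The protocol text that all samples share gives 20 Gy, delivered to tumours of 40 to 100 mm3, and this is taken here to apply to the 3 irradiated groups. Cells enriched on CD45 were sorted for CD8. Lysates were read on the NanoString nCounter immune exhaustion panel, which counts barcoded probes without amplification.

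The groups were SRT (samples 2, 3 and 8), CRT (samples 4, 5 and 9), SRT-like (samples 10, 11 and 12) and Nontreated (samples 1, 6 and 7). Values of single samples are given below in that order of sample numbers. The mode names are not spelled out in the labels. The schedule of the dose, the time from irradiation to sorting and the age and sex of the mice were not given in the sources used here. Separate mice are not named as the source of each sample, so each p-value reflects only how far these samples spread, a spread that may be technical. A transcript level in sorted bulk RNA cannot tell a smaller share of cells expressing a gene apart from less RNA per cell.

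Type I interferons are cytokines that cells release when they sense nucleic acid from a virus or from damaged DNA. Their receptor activates a complex of transcription factors, which binds a short DNA element in the promoters of antiviral genes. In CD8+ T cells the same cytokines can act as a further signal beside antigen and co-stimulation, and long exposure to antigen in a tumour leads to a state of reduced function called exhaustion.

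The genes of the labelled cell type were high in every sample. Averaged over the Cd3 and Cd8 probes, the log2 level was 10.9 to 11.4 in the irradiated samples and 10.8 to 11.2 in the Nontreated samples. Background was set for each sample at the mean plus 2 SD of 26 probes for genes of other tissues or a virus, and 472 probes lay above it in every sample of at least 1 group. Cd4, the monocyte genes Csf1r and Cd14 and the B cell gene Ms4a1 were above background in 0 of the 12 samples. By contrast, several markers from the same lists exceeded it in all 12, among them Tyrobp, Cd68, Cd86 and Ccr2 of the macrophage and monocyte list, H2-Aa and Itgax of the antigen-presenting cell list and Ighm of the B cell list, while H2-Ab1 was so in 11 and Foxp3, of regulatory T cells, in 8. The molecule counts recovered from the values summed to between 160373 and 421066 in the irradiated samples, and to 366987, 467904 and 118694 in the Nontreated samples. Nontreated sample 7 was therefore the shallowest, and its background probes averaged a normalised count of 14.7, against 6.31 and 7.27 in the other Nontreated samples and 9.21 to 14.97 in the irradiated samples. In 2-sided exact permutation tests over samples, the totals of irradiated and Nontreated samples gave p = 0.391 and the background means p = 0.264.

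Irradiated samples had higher levels of antiviral genes, of the costimulatory ligands Cd80, Cd86 and Tnfsf9, of the chemokine receptors Ccr1 and Cxcr3 and of the transcription factor Klf2. In all, 24 of the 773 probes rose, which is 3.10% of those tested, and 0 fell (0%) in limma's test with Benjamini-Hochberg adjustment at 0.05. At an unadjusted p under 0.05, 111 probes were higher (14.4%) and 7 lower (0.906%). For 22 of the 24, every irradiated sample lay above every Nontreated sample, which held for 36 of all probes (4.66%). The exceptions were Maml3 and Ido2, which with Ccnb3 and Gbp2b were also the 4 called probes that were not above background. The number of calls hung on single libraries: it was 2 without CRT sample 5 or SRT-like sample 11, 4 without Nontreated sample 1, 9 without Nontreated sample 6, 14 without CRT sample 4, 15 without SRT-like sample 12 and 77 without Nontreated sample 7.

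The whole panel also shifted. The difference was above 0 for 570 probes (73.7%), with a median of 0.22 on the log2 scale. The shift was 0.11 over the 472 probes above background, 0.39 over the other 301 and 0.45 over the background probes. Median log2 level over all probes averaged 5.93 in irradiated and 5.67 in Nontreated samples (exact permutation test, 2-sided p = 0.0273). Values below are as deposited and hold this shift. With each sample centred on its median, 10 probes rose (Rsad2, Mx2, Ifit3/3b, Oas1a, Oas2, Oas3, Xaf1, Ccr1, Cd80 and Ccnb3) and 1 fell, and the other 14 of the 24 lost their call. Among those were Klf2 (0.89, limma adjusted p = 0.104), Tnfsf9 (0.61, adjusted p = 0.172), Cd86 (0.40, adjusted p = 0.210) and Cxcr3 (0.56, adjusted p = 0.210). At an unadjusted p under 0.05 the centred split was 47 higher and 69 lower.

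**Figure D1:**
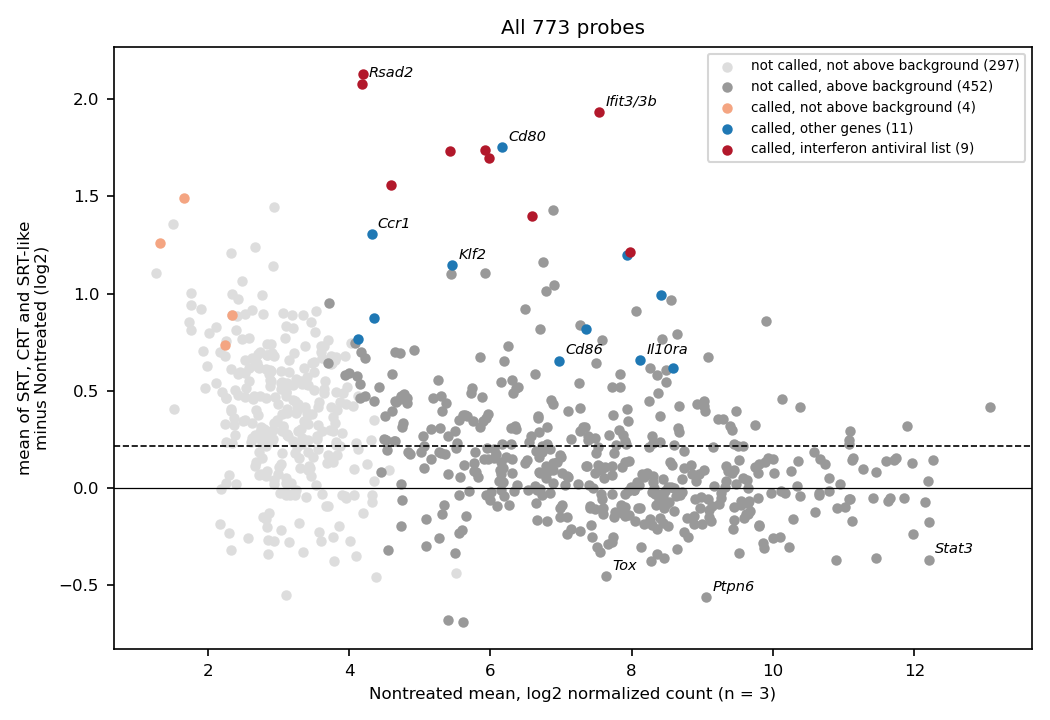
Each point is 1 of the 773 probes, with its mean log2 normalised count in Nontreated (n = 3) on the x axis and the mean of the SRT, CRT and SRT-like means minus the Nontreated mean on the y axis. The dashed line is the median of all probes, 0.22, and the 9 probes of the interferon antiviral list, in red, lie between 1.21 and 2.13.

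Antiviral effectors made up 9 of the 24 calls. The list of interferon-induced antiviral effectors had 9 measured members, Rsad2, Mx1, Mx2, Ifit1, Ifit3/3b, Oas1a, Oas2, Oas3 and Bst2, and all 9 rose, with no overlap between irradiated and Nontreated samples. Their median difference was 1.74 log2 units, against 0.22 over all probes, and 1.48 after median centring, against -0.04. After centring 6 of the 9 were still called. Ifit1, Mx1 and Bst2 were not (limma adjusted p = 0.069, 0.057 and 0.144). The list was drawn up with earlier results of these data known, so its count is a description.

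Binding elements for the interferon-activated complex share a core of GAAA, 2 further bases and GAAA. That core, GAAANNGAAA, was searched on both strands of the RefSeq promoters of build GRCm38.p6, from 250 bases before to 50 after each gene's start. Promoters in that table matched 7 genes of the list (Rsad2, Ifit1, Ifit3, Ifit3b, Oas1a, Oas3 and Bst2), and 7 of the 7 held the core. It was held by 1 of the 9 other called genes with a promoter there (Gbp2b), by 36 of 572 panel genes (6.29%) and by 1079 of 27025 genes (3.99%). A match is a description of the letters and not a measured binding site. The promoters below are shown because their genes carry the shared rise. Each reads 5′ to 3′ on the gene's strand, with the core in capitals (TTTCNNTTTC where it lies on the opposite strand). They are Rsad2 at chr12:26456403-26456702 (minus strand), Ifit1 at chr19:34640639-34640938 (plus), Ifit3 at chr19:34583279-34583578 (plus), Oas1a at chr5:120907476-120907775 (minus), Oas3 at chr5:120777610-120777909 (minus) and Bst2 at chr8:71537423-71537722 (minus).
Rsad2: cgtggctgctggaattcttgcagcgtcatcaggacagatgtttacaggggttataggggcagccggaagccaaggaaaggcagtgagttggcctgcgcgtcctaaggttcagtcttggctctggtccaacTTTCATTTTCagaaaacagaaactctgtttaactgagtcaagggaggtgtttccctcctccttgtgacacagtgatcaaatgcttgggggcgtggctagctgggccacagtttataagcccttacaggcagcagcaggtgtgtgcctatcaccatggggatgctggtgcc
Ifit1: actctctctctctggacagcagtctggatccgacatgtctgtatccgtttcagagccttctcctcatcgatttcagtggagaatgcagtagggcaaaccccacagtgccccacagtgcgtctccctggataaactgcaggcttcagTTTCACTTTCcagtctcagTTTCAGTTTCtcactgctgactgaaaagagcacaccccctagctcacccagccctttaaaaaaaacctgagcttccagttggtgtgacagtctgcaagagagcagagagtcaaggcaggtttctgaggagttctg
Ifit3: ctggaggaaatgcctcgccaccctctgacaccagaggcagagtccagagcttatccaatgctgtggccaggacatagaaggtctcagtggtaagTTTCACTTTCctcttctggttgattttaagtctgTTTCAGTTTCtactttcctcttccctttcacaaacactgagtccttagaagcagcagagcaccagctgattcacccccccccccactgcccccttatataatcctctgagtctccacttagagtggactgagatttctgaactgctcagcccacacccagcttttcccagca
Oas1a: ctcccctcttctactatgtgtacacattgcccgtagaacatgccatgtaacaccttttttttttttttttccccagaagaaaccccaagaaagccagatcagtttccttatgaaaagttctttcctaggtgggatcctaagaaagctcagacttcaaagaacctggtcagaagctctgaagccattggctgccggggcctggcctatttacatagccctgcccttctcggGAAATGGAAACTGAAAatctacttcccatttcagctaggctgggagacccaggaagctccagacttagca
Oas3: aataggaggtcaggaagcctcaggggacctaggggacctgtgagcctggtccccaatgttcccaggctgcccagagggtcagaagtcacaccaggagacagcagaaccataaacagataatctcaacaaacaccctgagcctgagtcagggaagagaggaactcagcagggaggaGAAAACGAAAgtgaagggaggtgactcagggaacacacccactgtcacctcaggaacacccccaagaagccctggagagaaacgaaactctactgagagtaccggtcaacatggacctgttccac
Bst2: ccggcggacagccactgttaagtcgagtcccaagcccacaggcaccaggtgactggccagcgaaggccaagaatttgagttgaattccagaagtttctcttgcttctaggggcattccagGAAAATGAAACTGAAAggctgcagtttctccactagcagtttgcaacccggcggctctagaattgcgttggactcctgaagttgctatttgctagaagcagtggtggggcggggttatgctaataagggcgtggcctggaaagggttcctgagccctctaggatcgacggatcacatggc

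The core began 120 bases before the gene start in Rsad2 and 75 bases before it in Oas3. Ifit1 held 2 separate matches, starting 104 and 85 bases before the gene, and Ifit3 held 2, at 156 and 122 bases. In Oas1a (20 and 14 bases before the start) and in Bst2 (130 and 124 bases) the 2 matches overlap, sharing a GAAA.

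Rsad2, or viperin, is an antiviral enzyme that makes a nucleotide analogue. Its normalised counts were 47.7, 47.8 and 97.7 in SRT, 91.8, 132 and 118 in CRT and 51.2, 70.9 and 81.2 in SRT-like, against 11.9, 23.1 and 22.1 in Nontreated. The lowest irradiated sample was thus above the highest Nontreated sample. Rsad2 rose 4.22-fold, a log2 difference of 2.08 ± 0.28 (SE from limma, adjusted p = 0.0148). Only 1 of the 3 Nontreated samples was above background for Rsad2, and with values raised to the background level the difference was 1.90.

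Mx1 and Mx2 belong to a gene family that encodes antiviral GTPases related to dynamin. Their protein and its function in this mouse strain were not measured. Mx2 counted 39.3, 39.7 and 100.9 in SRT, 98.3, 113 and 173 in CRT and 49.4, 79.4 and 111 in SRT-like, against 11.2, 24.7 and 22.1 in Nontreated, of which 1 was above background. Its difference was 2.13 ± 0.37 (SE, limma adjusted p = 0.0267), or 1.92 with values raised to background. Mx1 ranged from 116 to 349 in the irradiated samples and from 34.3 to 91.3 in the Nontreated samples, a difference of 1.70 ± 0.37 (limma adjusted p = 0.0365).

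The Ifit proteins bind viral RNA whose cap is missing or incomplete. The Ifit3/3b probe, which does not tell the genes Ifit3 and Ifit3b apart, counted 421, 396 and 821 in SRT, 926, 1328 and 1003 in CRT and 471, 595 and 951 in SRT-like, against 123, 288 and 181 in Nontreated. The lowest irradiated sample, SRT sample 3, stood clear of Nontreated sample 6, and the probe rose by 1.93 ± 0.32 log2 units (SE, limma adjusted p = 0.0233). Ifit1 counted 124, 116 and 209.7 in SRT, 285, 434 and 305 in CRT and 132, 139 and 274 in SRT-like, against 46.8, 114 and 42.1 in Nontreated. The margin was narrow, since Nontreated sample 6 lay just under SRT sample 3, and the difference was 1.74 ± 0.35 (SE, limma adjusted p = 0.0312).

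Oas1a, Oas2 and Oas3 encode 2′-5′ oligoadenylate synthetases, which activate the nuclease RNase L when they meet double-stranded RNA. Oas1a counted 156, 210.3 and 290.1 in SRT, 302, 378 and 420.1 in CRT and 194, 182 and 276 in SRT-like, against 62.4, 101 and 142 in Nontreated. Oas2 ranged from 37.0 to 141 in irradiated and from 18.7 to 34.1 in Nontreated samples, and Oas3 from 86.2 to 274 against 28.1 to 76.2. Oas1a rose by 1.40 ± 0.27, Oas2 by 1.56 ± 0.32 and Oas3 by 1.74 ± 0.36 log2 units (SE, limma adjusted p = 0.0304, 0.0320 and 0.0320).

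Bst2, or tetherin, holds budding virus particles at the cell surface. It counted 483, 442 and 503 in SRT, 830.0, 1028 and 684 in CRT and 405, 415 and 715 in SRT-like, against 222, 390.4 and 183 in Nontreated. SRT-like sample 10 lay just above Nontreated sample 6, and the difference of 1.21 ± 0.25 was the smallest of the group (SE, limma adjusted p = 0.0320).

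**Figure D2:**
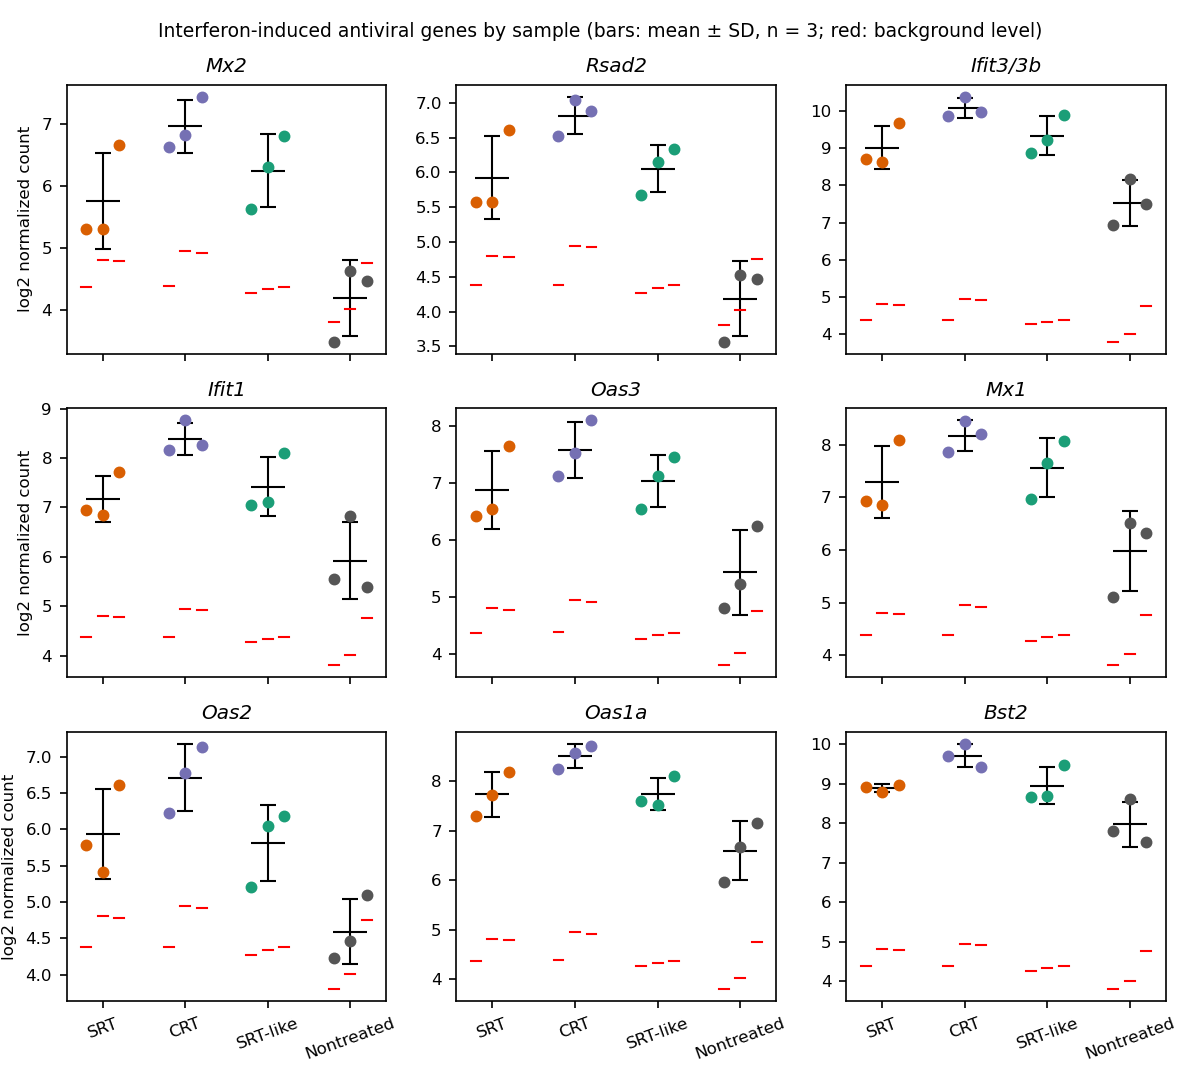
Log2 normalised counts of the 9 interferon-induced antiviral genes in each sample of SRT, CRT, SRT-like and Nontreated, with the mean and SD of each group (n = 3) and each sample's background level as a red dash. Every irradiated sample lies above every Nontreated sample in all 9 panels, and the CRT mean is the highest.

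The samples within a group were ordered alike by these genes. In 9 of the 9, SRT sample 8 was the highest of its group and SRT-like sample 12 the highest of its own. Nontreated sample 1 was the lowest Nontreated sample in 7, CRT sample 4 the lowest of CRT in 8 and SRT-like sample 10 the lowest of SRT-like in 8. The median of the 9 differences was 1.34 for SRT, 2.20 for CRT and 1.59 for SRT-like, each against the same Nontreated samples. CRT had the highest mode mean for 9 of the 9 and SRT the lowest for 8, but the F test among the modes gave adjusted p-values of 0.625 to 0.792 for them (limma), with 2 of 9 at an unadjusted p under 0.05.

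The antiviral calls depended on single libraries in the same way as the total. The count of 9 was 1 without CRT sample 5, SRT-like sample 11 or Nontreated sample 1, and 5 without Nontreated sample 6. Over 23 alternative settings the differences of the 9 genes stayed between 0.95 and 2.51, with 0 of 207 values reversed and 146 of 207 called. With the log2 total of each sample as a covariate, 26 probes rose, including the 9, whose median was then 1.62.

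Of the 15 measured genes on a second list, other genes that respond to interferons, 4 rose and 0 fell, with a median of 0.54. Among all probes 3.10% rose, and the median was 0.22. Xaf1, an interferon-inducible partner of the apoptosis inhibitor XIAP, ranged from 381 to 934 in irradiated and from 182 to 295 in Nontreated samples (1.20 ± 0.23 SE, limma adjusted p = 0.0304). Rnf213, a large ubiquitin ligase with antimicrobial activity, ranged from 445 to 998 against 265 to 425 (0.99 ± 0.22, adjusted p = 0.0372). The other called members were Gbp2b, an interferon-induced GTPase (0.74 ± 0.16), and Ido2, a tryptophan-degrading enzyme (1.26 ± 0.29), both below background in all 12 samples.

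Interferon receptors and signalling genes gave 0 calls among 8 measured, with 2 higher at an unadjusted p under 0.05 and a median of 0.28. Ifna1, a type I interferon gene, counted 9.87 to 22.6 in irradiated and 3.15 to 12.0 in Nontreated samples, below background in all 12 (1.24 ± 0.36, limma adjusted p = 0.123). Tbk1, the kinase downstream of cytosolic DNA sensing, had a difference of 0.27 ± 0.16 (adjusted p = 0.479).

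MHC class I and antigen-processing genes gave 0 calls among 10 measured, although all 10 differences were above 0 and 7 had an unadjusted p under 0.05. The panel shares were 73.7% above 0 and 14.4% higher at an unadjusted p under 0.05. The list median of 0.44 compares with 0.22 over all probes. Psmb9, an immunoproteasome subunit, had a difference of 0.40 ± 0.12 (limma adjusted p = 0.153), with no overlap between irradiated and Nontreated samples. H2-Q1 and H2-Q10, class I genes outside the classical loci whose probes may capture related class I transcripts, had differences of 1.21 ± 0.39 and 0.69 ± 0.24 (adjusted p = 0.165 and 0.201), and H2-Q1 was below background in all 12 samples.

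Among costimulatory receptors and ligands, 4 of 18 measured genes rose, against 3.10% of all probes, and 0 fell. The list median was 0.26, close to the 0.22 of all probes, and 0.003 after median centring. Cd80, which binds CD28 and CTLA-4 and is best known from antigen-presenting cells and also made by activated T cells, counted 198, 282 and 298 in SRT, 207, 171 and 151 in CRT and 264, 376 and 314 in SRT-like, against 144, 44.1 and 58.2 in Nontreated. CRT sample 9 and Nontreated sample 1 nearly met. Cd80 rose 3.37-fold (1.75 ± 0.31 SE, limma adjusted p = 0.0267).

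Cd86, the other CD28 ligand, counted 149.7, 196 and 191 in SRT, 240.1, 271 and 231 in CRT and 174, 157 and 195 in SRT-like, against 119, 128 and 128 in Nontreated. The Nontreated samples differed little from each other, and Cd86 rose by 0.66 ± 0.14 log2 units (SE, limma adjusted p = 0.0320). Tnfsf9, the ligand of the receptor 4-1BB, counted 34.3, 31.6 and 29.9 in SRT, 33.6, 37.1 and 37.7 in CRT and 33.3, 52.96 and 51.2 in SRT-like, against 19.4, 24.1 and 18.1 in Nontreated. It rose by 0.87 ± 0.17 (adjusted p = 0.0304), with 2 of 3 Nontreated samples above background. The receptor itself, Tnfrsf9, had a difference of -0.17 ± 0.16 (adjusted p = 0.667).

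Cd226, or DNAM-1, is an activating receptor of T and natural killer cells that competes with TIGIT for its ligands. It ranged from 524 to 634 in irradiated and from 319 to 421 in Nontreated samples. The rise of 0.62 ± 0.14 (SE, limma adjusted p = 0.0402) came with mode differences of 0.62 for SRT, 0.63 for CRT and 0.60 for SRT-like.

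Cd80 was also on the marker list for dendritic and antigen-presenting cells and Cd86 on that for macrophages and monocytes, each as the only called member. Of all probes, 3.10% rose, 14.4% were higher at an unadjusted p under 0.05 (limma) and 73.7% had a difference above 0. Of the 11 measured dendritic and antigen-presenting markers 1 rose and 7 had a difference above 0, with a median of 0.45. At an unadjusted p under 0.05, 3 of these markers were higher and 0 lower. The log2 of their summed normalised counts ranged from 9.05 to 10.8 in the irradiated samples and from 9.24 to 10.2 in the Nontreated samples. Such a sum is weighted towards the most abundant members and includes the called member of its list. Of the 14 macrophage and monocyte markers 1 rose and 10 had a difference above 0, with a median of 0.40, and 6 were above background in no sample. At an unadjusted p under 0.05, 5 of the 14 were higher and 0 lower. The log2 of their summed counts ranged from 9.79 to 10.5 against 9.50 to 9.84. H2-Aa, an MHC class II chain, had a difference of -0.19 ± 0.46 (limma adjusted p = 0.859). The part of other cells in the rise of Cd80, Cd86 and the antiviral genes was not tested.

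The remaining cell-type lists gave 0 calls, with 2 B cell markers and no others at an unadjusted p under 0.05. B and plasma cell markers had a median difference of 0.57 over 10 genes, of which 5 were above background in no sample. The log2 of their summed counts was 7.83 to 8.74 in irradiated and 8.05 to 8.54 in Nontreated samples. CD4 and regulatory T cell markers had a median of 0.03 over 12, natural killer cell markers 0.20 over 8, and tumour and stroma markers 0.32 over 6. The CD8 T cell identity genes had a median of 0.00 over 8, and Cd8a had a difference of 0.12 ± 0.13 (limma adjusted p = 0.700) and Cd8b1 of 0.14 ± 0.23 (adjusted p = 0.792), both below 0 after median centring, at -0.14 and -0.12.

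Receptors for chemokines gave 2 calls higher among 7 measured, with a median of 0.51, against 3.10% called and a median of 0.22 over all probes. Ccr1, a receptor of inflammatory CC chemokines, counted 38.5, 41.5 and 63.1 in SRT, 41.8, 43.6 and 58.3 in CRT and 54.3, 49.2 and 60.9 in SRT-like, against 24.3, 16.3 and 20.1 in Nontreated. It rose by 1.31 ± 0.20 log2 units (SE, limma adjusted p = 0.0161) and the mode differences were 1.22, 1.25 and 1.45. In Nontreated, 2 of 3 samples were above background.

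Cxcr3, the receptor for the interferon-induced chemokines CXCL9, CXCL10 and CXCL11, counted 227, 202.2 and 301 in SRT, 388, 440.5 and 327 in CRT and 265, 219 and 293 in SRT-like, against 142, 202.0 and 151 in Nontreated. SRT sample 3 and Nontreated sample 6 were thus almost equal. Cxcr3 rose by 0.82 ± 0.18 (SE, limma adjusted p = 0.0372). Ccr2, a receptor for monocyte chemoattractants, had a difference of 0.52 ± 0.23 (adjusted p = 0.317).

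Klf2 is a transcription factor of quiescent, recirculating T cells that maintains the exit receptor S1PR1. It counted 92.0, 79.4 and 143.5 in SRT, 66.4, 69.4 and 90.9 in CRT and 101, 121 and 146 in SRT-like, against 59.3, 37.8 and 38.1 in Nontreated, and rose by 1.14 ± 0.22 (SE, limma adjusted p = 0.0304). It was the 1 call among 12 stem-like and memory genes, whose median was 0.58, where 3.10% of all probes were called. Bcl2, the survival factor, had a difference of 1.43 ± 0.38 (adjusted p = 0.0880), and Tcf7, the transcription factor of stem-like exhausted cells, 0.64 ± 0.27 (adjusted p = 0.295). Slamf6, a surface marker of those cells, had a difference of -0.04 ± 0.17 (adjusted p = 0.926).

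Among cytokine receptors and cytokines outside these lists, Il10ra and Osm rose. Il10ra, the ligand-binding chain of the interleukin-10 receptor, counted 352, 346 and 366 in SRT, 451, 591 and 478 in CRT and 447, 443 and 551 in SRT-like, against 279, 299 and 261 in Nontreated. Its difference of 0.66 ± 0.13 (SE, limma adjusted p = 0.0320) came with mode differences of 0.35 for SRT, 0.85 for CRT and 0.78 for SRT-like, and an adjusted p of 0.621 among the modes. Osm, oncostatin M, a cytokine of the interleukin-6 family, ranged from 23.8 to 42.7 in irradiated and from 14.04 to 20.0 in Nontreated samples (0.77 ± 0.18, adjusted p = 0.0491), and 9 of 12 samples were above background.

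**Figure D3:**
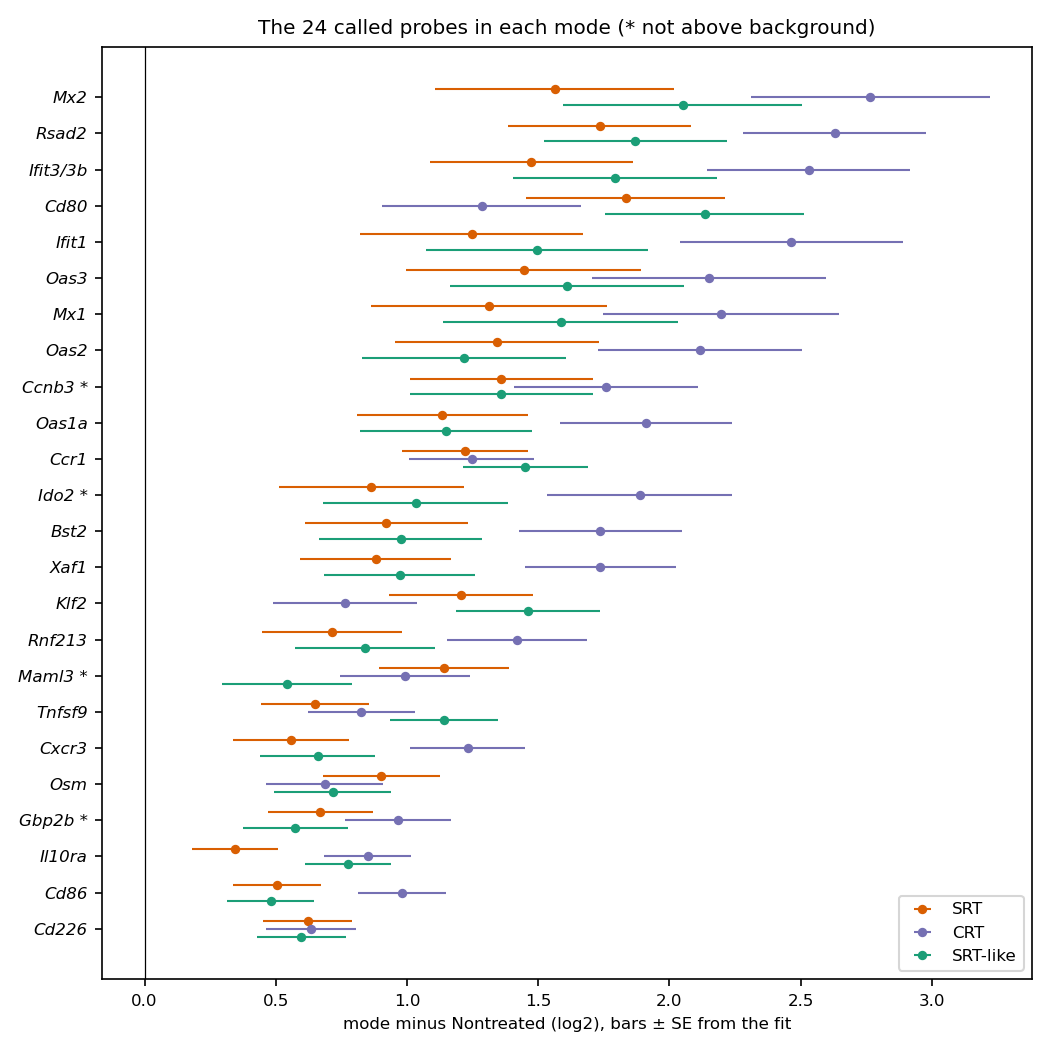
Each mode minus Nontreated on the log2 scale for the 24 called probes, with the SE from the fit and an asterisk on the 4 probes that were not above background. The differences are above 0 in every mode, from 0.35 to 1.83 in SRT, from 0.63 to 2.77 in CRT and from 0.48 to 2.13 in SRT-like, and the modes share the same 3 Nontreated samples.

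Cytotoxic and effector genes gave 0 calls among 20 measured, while all 20 differences were above 0 and 5 had an unadjusted p under 0.05. Of all probes, 73.7% had a difference above 0 and 14.4% were higher at an unadjusted p under 0.05. The median of the list was 0.25, close to the 0.22 of all probes, and -0.01 after median centring. Gzmd, a granzyme of strongly activated killer cells, just missed the threshold with 0.91 ± 0.22 (SE, limma adjusted p = 0.0509) and did not overlap. It counted 598, 414 and 921 in SRT, 310.5, 350.2 and 346 in CRT and 686, 585 and 575 in SRT-like, against 216, 291 and 301 in Nontreated, and the mode differences were 1.20, 0.33 and 1.20. Its probe and that of Gzme (0.73 ± 0.21, adjusted p = 0.123) could share RNA of near-identical granzymes.

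Gzmb, the main granzyme of CD8+ T cells, ranged from 1230.4 to 2862 in irradiated and from 634 to 1498 in Nontreated samples, a difference of 0.86 ± 0.27 (SE, limma adjusted p = 0.153). Tnf had a difference of 0.92 ± 0.30 (adjusted p = 0.159). Prf1, encoding perforin, had 0.22 ± 0.19 (adjusted p = 0.650), and Ifng 0.23 ± 0.29 (adjusted p = 0.747). The last 2 turned below 0 after median centring, at -0.04 and -0.03.

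Inhibitory receptors and exhaustion regulators gave 0 calls among 23 measured, with 12 differences above 0 and a median of 0.02. Before adjustment, 2 had a higher level and 1 a lower level at p under 0.05 in limma's test. Pdcd1, encoding PD-1, ranged from 2514 to 5362 in irradiated and from 3078 to 4543 in Nontreated samples, a difference of -0.05 with a 95% interval of -0.50 to 0.40 (limma adjusted p = 0.919). Havcr2, encoding TIM-3, had a difference of 0.21 with an interval of -0.14 to 0.56 (adjusted p = 0.583), which was -0.05 after median centring. These intervals leave room for changes of either sign.

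Tox, the transcription factor that drives the exhausted state, counted 175, 183 and 120 in SRT, 128, 116 and 132 in CRT and 155, 141 and 172 in SRT-like, against 215, 198 and 185 in Nontreated. It did not pass the test, at -0.45 ± 0.16 (SE, limma adjusted p = 0.189). Tox and Stat3 were the 2 probes of 773 (0.259%) for which every irradiated sample lay below every Nontreated sample. Vsir and Prdm1 were at the other end of the list, with 0.43 ± 0.14 and 0.45 ± 0.17 (adjusted p = 0.169 and 0.222).

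**Figure D4:**
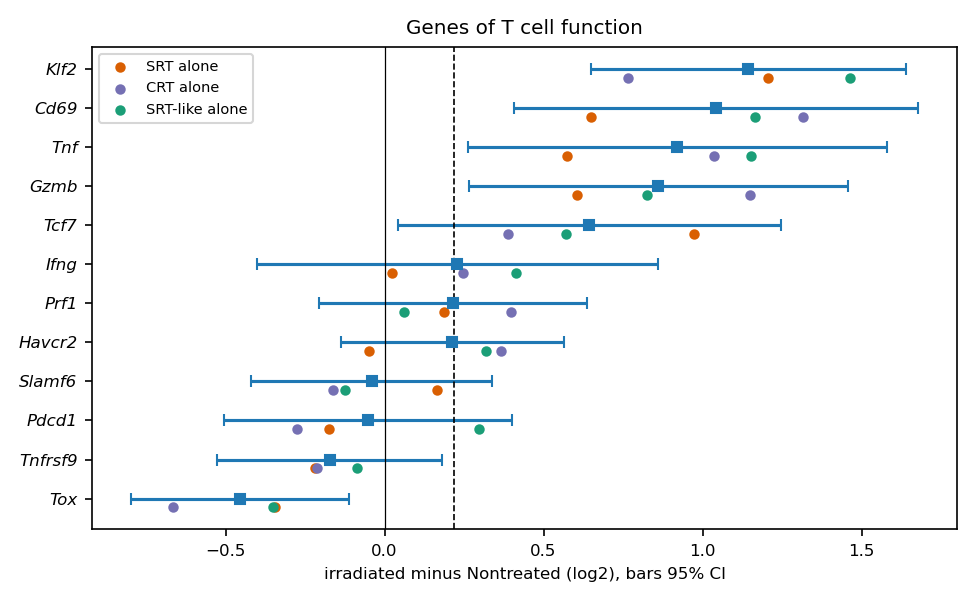
Mean of the modes minus Nontreated on the log2 scale, with its 95% interval, for 12 genes of T cell function, and the difference of each mode as a small point. The dashed line is the median of all probes, 0.22, and of the 12 genes Klf2 was called, at 1.14, while Tox lay lowest at -0.45.

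On the lower side, the 6 probes of lowest unadjusted p were Ptpn6, Tox, Stat3, Il1rl1, Psmd6 and Siglecf. Ptpn6 encodes SHP-1, a phosphatase that dampens T cell receptor signals. It counted 365, 493 and 356 in SRT, 309.7, 302 and 292 in CRT and 396, 451 and 327 in SRT-like, against 479.9, 521 and 599.9 in Nontreated. SRT sample 3 overlapped with Nontreated, and the difference of -0.56 ± 0.15 did not pass (limma adjusted p = 0.104). It was called lower in 4 of the 23 alternatives, among them median centring (-0.82, adjusted p = 0.0413). Stat3, a transcription factor downstream of interleukin-6 family and interleukin-10 receptors, ranged from 3051 to 4372 against 4551 to 4972 (-0.37 ± 0.13, adjusted p = 0.205). Il1rl1, the interleukin-33 receptor, had -0.68 ± 0.29, Psmd6, a proteasome subunit, -0.34 ± 0.14, and Siglecf, a sialic acid-binding receptor known from eosinophils, -0.69 ± 0.30 (adjusted p = 0.295, 0.304 and 0.314).

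The other functional lists held 1 call, while 3.10% of all probes were called. T cell receptor complex and signalling genes gave 0 calls among 24, with 3 higher and 1 lower at an unadjusted p under 0.05 and a median of 0.09. Cell cycle genes gave 1 among 9, Ccnb3, a cyclin best known from germ cells, which was below background in all 12 samples. The median of the list was 0.21, with mode medians of 0.07 for SRT, 0.61 for CRT and 0.02 for SRT-like. In limma's F test among the modes, 4 of the 9 had an unadjusted p under 0.05, against 59 of all 773 probes. That test called 0 probes after adjustment. For irradiated against Nontreated, genes of p53 and the DNA damage response gave 0 calls among 10 (1 at an unadjusted p under 0.05), with a median of 0.27. All 10 differences were above 0, as were 73.7% of those of all probes. Apoptosis genes gave 0 among 15 (2 unadjusted), with a median of 0.10. Chek1, a checkpoint kinase of the DNA damage response, had 0.46 ± 0.14 and Casp8, an initiator caspase, 0.45 ± 0.14 (SE, limma adjusted p = 0.123 and 0.153), both without overlap.

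The NF-kB and AP-1 list gave 0 calls among 14, with 2 at an unadjusted p under 0.05 and a median of 0.05. Its AP-1 members Jun and Fos, early genes of stimulated cells, had differences of 1.10 ± 0.34 and 1.01 ± 0.35 (SE, limma adjusted p = 0.153 and 0.190), and Nfkb1 had -0.33 ± 0.17 (adjusted p = 0.426). Tissue residency and adhesion genes gave 0 among 9, with 3 at an unadjusted p under 0.05 and a median of 0.25. Cd69, which marks activation and tissue residency, ranged from 144 to 376 in irradiated and from 96.3 to 174 in Nontreated samples (1.04 ± 0.29, adjusted p = 0.104).

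**Figure D5:**
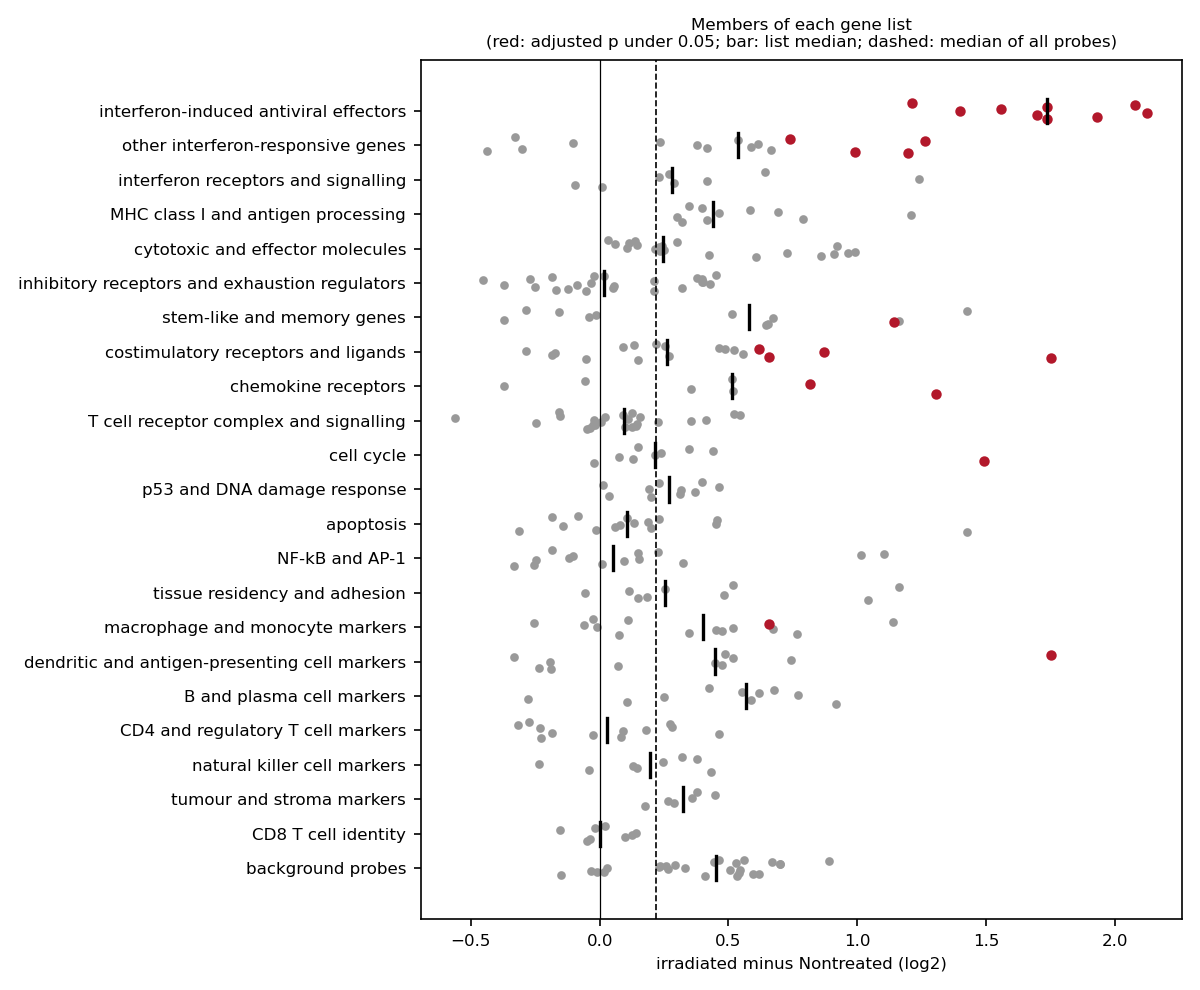
Irradiated minus Nontreated on the log2 scale for every measured member of each gene list, with called probes in red, a bar at the list median and a dashed line at the median of all probes, 0.22. The 9 interferon-induced antiviral genes have a median of 1.74, and the background probes, at the bottom, have a median of 0.45.

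Set separately against the same Nontreated samples, CRT gave 23 probes higher (2.98%) and 1 lower, Ptpn6, SRT-like gave 5 higher (0.647%) and SRT gave 0 (0%), with 84 probes at an unadjusted p under 0.05 in SRT (limma). The 5 in SRT-like were Ccr1, Cd80, Tnfsf9, Rsad2 and Klf2. These counts share the controls, and they do not show that the modes differ. The contrasts of the F test among the modes leave out the Nontreated samples, while its estimate of the spread uses all 12 samples. This test called 0 of 773 probes (0%), with a smallest adjusted p of 0.598 and 59 probes at an unadjusted p under 0.05. For the 24 called probes its adjusted p ranged from 0.621 to 0.995. Of these 24, 7 had an unadjusted p under 0.05, against 59 of all 773 probes. The lack of calls does not show that the modes are alike.

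Zfp683, Ccl22, Itgae and Ccr7 were among the 5 probes of lowest p in that F test, and none passed. Zfp683, or Hobit, a regulator of tissue-resident T cells, differed from Nontreated by 0.68 for SRT, -0.53 for CRT and 1.30 for SRT-like. Itgae, encoding the residency integrin CD103, differed by 0.54, -1.15 and 1.05 in the same order, and Ccr7, the lymph node homing receptor, by 0.07, -1.08 and -0.10. Ccl22, a chemokine of dendritic cells and macrophages, differed by 1.48, 0.65 and -0.82. For these genes the mean of the modes combines estimates of opposite sign, although the one positive value of Ccr7 was only 0.07. Zfp683 and Itgae were each above background in 1 of 3 CRT samples. Ccl22 was so in 0 of 3 SRT-like and 1 of 3 Nontreated samples.

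Calls also differed in how far they depended on the setting. Of 23 alternatives, Rsad2 was called in 22, Ccr1 in 21, Ifit3/3b in 19, Mx2 in 18 and Cd80 in 17. Klf2 was called in 15, Tnfsf9 in 14, Il10ra in 13 and Cd86 in 12. The weakest were Cxcr3 with 9, Cd226 with 8, Osm with 4 and, below background, Ido2 with 5 and Gbp2b and Maml3 with 3 of 22 each.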

How the data were processed

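RNA of sorted CD8+ T cells was measured in 12 samples with 773 probes. The deposited values are on a log2 scale, and per the labels the authors normalized counts with ROSALIND. Its version, reference probes and treatment of background are not given in the sources. In each sample, 100% of the values, taken as powers of 2, were whole multiples of a sample-specific step (tolerance 0.02 of a step), which gave molecule counts and depth. Normalised counts in the text are 2 raised to the deposited log2 value.

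The test was limma (3.58.1, R 4.3.3), lmFit and eBayes without a trend, on 4 group means of all 12 samples, 2-sided, with Benjamini-Hochberg adjustment over 773 probes and a threshold of 0.05. Contrasts were the mean of the SRT, CRT and SRT-like means minus Nontreated, each mode minus Nontreated, and an F test among the modes. The code was tested on simulated data. Background was each sample's mean plus 2 SD of 26 probes for genes of other tissues or a virus, and probes below it stayed in the tests.

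Genes named were all called probes, the 6 lower probes with the smallest p, up to 3 per list, 12 genes of T cell function and the 5 with the smallest p among the modes. A few of these are not reported here, and a few more are named as members or markers beside a count. The members, lists, background probes and settings were chosen with earlier results of these data known. Of the probe names, 756 matched a RefSeq symbol (GRCm38.p6), from which promoters were taken. Counts of every pair within a group differed beyond sampling noise, and each sample counted as 1 replicate. Alternatives were other scalings, low-value rules, variance priors, sample weights, groupings, voom on the recovered counts, depth as a covariate, blocks of sample numbers, and leaving out each sample.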

Additional observations from a re-analysis of the deposited data

How the results depend on the processing

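Against 24 probes higher, the count was 10 with median centring, 2 with quantile normalization, 64 with sample weights, 8 with the 9 irradiated samples as 1 group, and 0 with SRT and CRT alone against Nontreated (101 at an unadjusted p under 0.05, smallest limma adjusted p 0.054). The last became 16 with samples 1 to 5 and 6 to 9 as blocks. Leaving out 1 sample gave 2 to 77. The antiviral count of 9 was 6 with median centring, 2 with quantile normalization and 4 with the 9 samples as 1 group. It was 0 with SRT and CRT alone, and 1 to 9 leaving out 1 sample. The count of lower probes was 1 with median centring, with probes above background alone, with a trended robust prior and with voom, and 0 otherwise. The F test among the modes called 0 probes in every setting run. The causes were not tested. No paired analysis was possible because the labels give no pairing: each sample has its own running number, and mice are not named. The block is a run of numbers, not a pairing, and SRT-like has no Nontreated sample in its run.

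Of 548 values of called genes under the alternatives, 312 were called, 236 were not and 0 reversed. Over all probes the sign turned for 226 with median centring and for 46 with values raised to background. Among the genes named by rule, the differences that reversed were of genes not called. With median centring these were Cd8a -0.14, Cd8b1 -0.12, Prf1 -0.044, Ifng -0.030, Havcr2 -0.047 and Itgae -0.11. With quantile normalization they were Il5 -0.14, Pdgfrb -0.052 and Itgae -0.13, with the floor Il13 0.20, and with sample weights Pdcd1 0.053 and Itgae -0.098. With SRT and CRT alone they were Cd8a -0.0068, Slamf6 0.0017 and Itgae -0.30, and with the blocks Cd8a -0.026, Cd5 0.013, Cd8b1 -0.0047, Slamf6 0.027, Zfp683 -0.076 and Itgae -0.21. Leaving out 1 sample gave, for genes that reversed, -0.059 to 1.00 for Ccl22, -0.11 to 0.29 for Cd8b1, -0.10 to 0.31 for Itgae, -0.19 to 0.093 for Pdcd1, -0.016 to 0.46 for Pdgfrb, -0.098 to 0.034 for Slamf6 and -0.023 to 0.75 for Zfp683. Of the 24 calls, 4 were among the 301 probes that were not above background.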

Other observations

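Probes for the gamma and delta chains of the T cell receptor, which a minor lineage of T cells uses in place of alpha and beta chains, were picked out after their values were seen. All 13 had a difference above 0, as had 73.7% of all probes and 23 of the 26 background probes. The 13 had a median of 0.75 and a range of 0.20 to 1.44 on the log2 scale. Of them 0 were called (smallest limma adjusted p = 0.104) and 11 were not above background. The 2 probes for the alpha and beta constant chains had differences of 0.08 and -0.07. Over all probes not above background the median difference was 0.39.

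Of 17 probes for interleukin receptor subunits, also grouped after their values were seen, 1 was called, Il10ra (3.10% of all probes were called). The others had adjusted p-values above the threshold, with differences from -0.68 for Il1rl1 to 0.82 for Il12rb1, a subunit of the receptors for interleukin-12 and interleukin-23, and 11 of the 17 differences were above 0 (median 0.25).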
